A study of Mus musculus with 6 samples.

Results

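The 10 genes described here encode enzymes of glycolysis and were chosen by their symbols: Hk1, Hk2, Gpi1, Pfkm, Pfkl, Aldoa, Gapdh, Pkm, Ldha and Ldhb. They are 10 of 54115 genes with a quantified transcript, and all 10 were among the 17152 genes that passed a filter of at least 5 reads in at least 2 libraries. RNA-seq was performed on muscle stem cells (satellite cells) sorted from uninjured hindlimb muscle of C57BL/6J mice as α7-integrin+ and CD34+ and as negative for CD31, CD11b, SCA-1 and CD45. Libraries came from 3 samples with wild-type Pax7 (Pax7WT) and 3 samples homozygous for Pax7KR, in which CRISPR/Cas9 replaced an acetylated lysine of the PAX7 protein, between its paired domain and its homeodomain, by arginine. Mice of both genotypes were young adults, the founders had been crossed to the wild-type strain, and wild-type littermates served as controls. The 2 groups are compared here to ask whether RNA of glycolytic enzymes differs when this lysine cannot be acetylated.

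Glycolysis turns glucose into pyruvate in the cytosol and yields ATP and NADH, and lactate dehydrogenase regenerates NAD+ by reducing pyruvate to lactate. Several steps are served by isozymes from separate genes that differ in tissue distribution and regulation, and Pkm yields different pyruvate kinases by splicing. Quiescent satellite cells are described as relying mainly on fatty acid oxidation and as turning to glycolysis when they activate, a change that also alters the supply of acetyl-CoA for protein acetylation. The cells here were freshly isolated, and the authors cite evidence that isolation itself shifts expression towards partial activation. Their levels therefore need not be those of quiescent cells in muscle.

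Sequencing gave 17822367 to 27908054 estimated reads per library. Satellite cell markers were abundant, with Pax7 at 511 to 590 TPM (a level corrected for transcript length and library size) and Myf5, a myogenic regulator and target of PAX7, at 388 to 463 TPM. Pax7 RNA itself, which cannot show the substitution in these summed counts, had a log2 fold change of -0.05 (SE 0.08). Genes listed as markers of other cell types were also detected. Summed erythroid markers were at 720 to 1388 TPM in Pax7WT and 1265 to 2057 TPM in Pax7KR. Endothelial markers were at 126 to 166 and 142 to 205 TPM, and myofibre markers at 232 to 267 and 210 to 259 TPM. Fibro-adipogenic markers summed to 669 to 730 TPM in Pax7WT and 690 to 744 TPM in Pax7KR. Smooth muscle and pericyte markers summed to 299 to 371 and 283 to 367 TPM. Schwann and glial markers summed to 218 to 245 and 202 to 237 TPM. Tek and Pecam1 led the endothelial list, and Ncam1 and Mbp the Schwann and glial list. Whether satellite cells themselves made part of this RNA was not tested. Actn3 and Atp2a1 were the most abundant myofibre markers, and Ckm and Myh4 reached no more than 14.8 and 2.73 TPM. Immune markers summed to 21.6 to 26.2 and 20.1 to 24.4 TPM. The most abundant of them were Lyz2 and Cd79a, and the T cell marker Cd3e was listed at 0 in all 6 libraries. Pax7WT replicate 2 was low in the dissociation response gene Fos (3483 CPM, a read count scaled for library size, against 4969 to 6729 in the other 5 libraries), and Pax7KR replicate 2 was low in the Y-linked Ddx3y (52.0 CPM against 117 to 135). The libraries are bulk RNA, so that fewer cells of a type and less RNA per cell cannot be told apart.

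The enzymes spanned about 3 orders of magnitude in level. Gapdh, which oxidizes glyceraldehyde-3-phosphate, was the highest at 974 to 1115 TPM, and ranked 132 among the 54115 genes. Aldoa, the aldolase that splits fructose-1,6-bisphosphate, followed at 667 to 729 TPM. Pkm, the pyruvate kinase that closes the pathway, stood at 557 to 620 TPM.

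The middle of the order was formed by Gpi1, the glucose-6-phosphate isomerase, at 165 to 199 TPM. Ldha, which encodes the lactate dehydrogenase subunit that prevails in muscle, lay at 122 to 141 TPM. Hk1, the widely expressed hexokinase, was measured at 69.1 to 84.6 TPM. All 3 were lower than Pkm, the nearest by 3.30-fold in mean TPM.

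The phosphofructokinase genes Pfkm (muscle type) and Pfkl (liver type) stood at 24.9 to 29.2 and 8.01 to 13.1 TPM. Ldhb, the heart-type lactate dehydrogenase subunit, and Hk2, the insulin-responsive hexokinase of muscle and fat, were lowest at 2.36 to 3.77 and 0.515 to 1.59 TPM. None of the 9 pairs of neighbours in this order overlapped in their TPM ranges over the 6 libraries, and both genotypes therefore had the same order. The Ldhb level rests on 3 of its 4 annotated transcripts and on 15 to 36 reads per library, because the transcript Ldhb-201 was not analysed here, so its place in the order is uncertain.

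**Figure D1:**
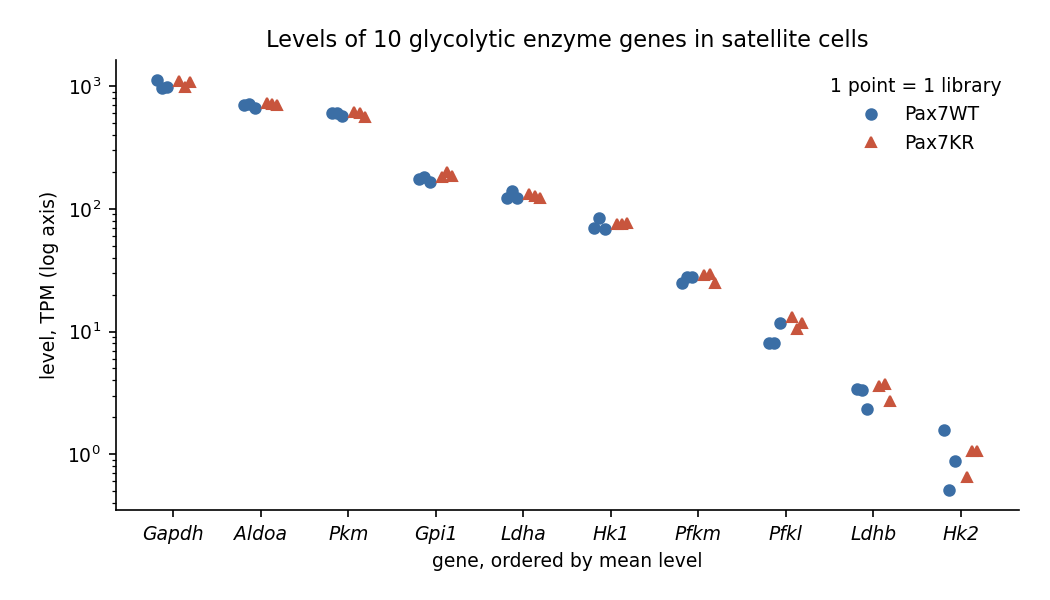
Level of each of the 10 genes in TPM on a log axis, ordered by the mean over 6 libraries, with 1 point per library (circles Pax7WT, triangles Pax7KR). Gapdh lies between 974 and 1115 TPM and Hk2 between 0.515 and 1.59 TPM, and no neighbouring genes overlap.

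The summed level of the 10 genes was 2838, 2739 and 2620 TPM in the Pax7WT libraries and 2888, 2753 and 2768 TPM in the Pax7KR libraries. The groups overlapped, with means of 2732 ± 109 and 2803 ± 73.7 TPM (SD, n = 3 each), or 0.273% and 0.280% of all transcripts.

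None of the 10 genes passed an adjusted p of 0.1 between genotypes in edgeR's quasi-likelihood test with Benjamini-Hochberg adjustment over all genes, where adjusted p ranged from 0.992 to 0.998. The same cut-off was passed by 0 of 17152 genes (0.0%) in edgeR and by 30 of 17138 (0.175%) in DESeq2, none of them a glycolytic enzyme of this list. An unadjusted p under 0.05 was reached by 1 of the 10, against 803 of all genes (4.68%, of which 2.26% higher and 2.43% lower in Pax7KR). The groups did not overlap in CPM for 1 of the 10, against 1773 genes (10.3%, of which 5.14% higher and 5.19% lower in Pax7KR). Their median log2 fold change (Pax7KR over Pax7WT) was -0.03, beside a median of -0.0038 over all genes, with 3 of the 10 higher and 7 lower (Pfkm and Aldoa turned from lower to higher when library sizes alone set the scale). The median absolute log2 change was 0.06 for the 10 genes and 0.11 for all genes tested. These medians were not matched for expression level, so their difference need not be particular to the enzymes.

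For 7 of the 10 genes (Hk1, Gpi1, Pfkm, Aldoa, Gapdh, Pkm and Ldha), the 95% interval of the fold change lay within 1.25-fold in either direction, its limits over these genes being 0.846 and 1.14. The intervals of Hk2, Pfkl and Ldhb were wider or lay further from 1, and are given with each gene.

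**Figure D2:**
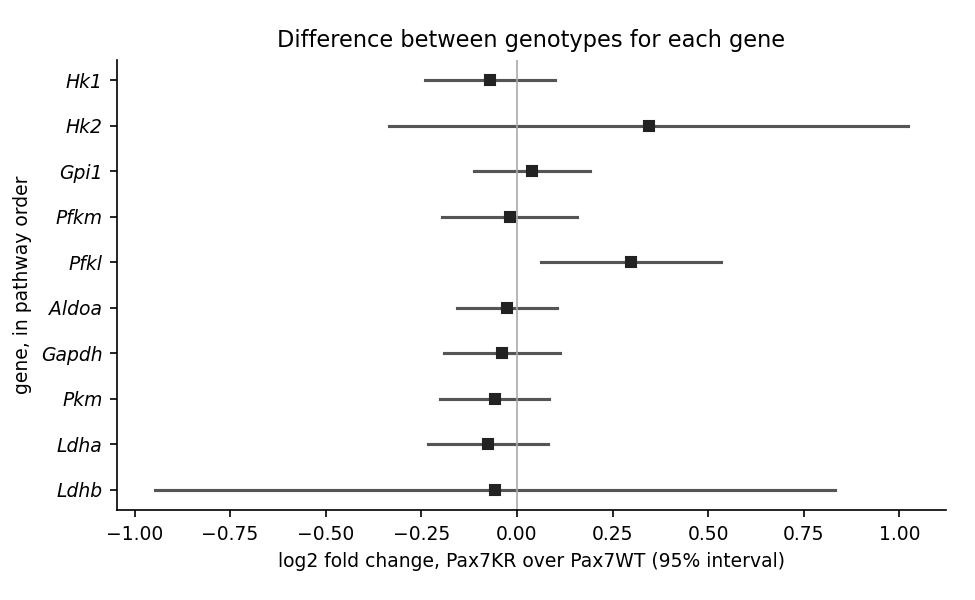
Log2 fold change of Pax7KR over Pax7WT (x axis, squares) with its 95% interval from edgeR for each gene in pathway order, n = 3 libraries per genotype. The 7 abundant genes have narrow intervals around 0, Hk2 and Ldhb have wide ones, and the interval of Pfkl runs from 0.06 to 0.53.

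Glucose is first phosphorylated by hexokinase. Hk1 (ENSMUSG00000037012, chr10:62268855-62379908, minus strand, GRCm38) had 152, 178 and 143 CPM in Pax7WT and 144, 148 and 158 CPM in Pax7KR. Pax7WT replicate 2 was the highest of the 6 libraries and the groups overlapped (log2 fold change -0.07, SE 0.08, 95% interval -0.24 to 0.10). Its level was divided over 3 coding transcripts, Hk1-205, Hk1-202 and Hk1-201, at 39.5%, 32.0% and 28.1% of the mean TPM of the gene. The division varied between libraries. Hk1-205 ranged from 16.3 TPM (Pax7WT replicate 1) to 36.9 TPM (Pax7WT replicate 2), and Hk1-202 from 14.9 TPM (Pax7KR replicate 1) to 29.3 TPM (Pax7WT replicate 1).

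Hk2 (ENSMUSG00000000628, chr6:82725025-82774454, minus strand) was counted with 64, 31 and 60 reads in Pax7WT and 47, 81 and 74 reads in Pax7KR. In CPM this gave 2.35, 1.75 and 2.92 against 2.06, 3.39 and 3.50, so that Pax7KR held the 2 highest libraries while the groups overlapped. The log2 fold change was 0.34 (SE 0.31, 95% interval -0.34 to 1.02), so that the interval included 0, and it was 0.18 to 0.55 with 1 library left out (0.18 without Pax7WT replicate 2 and 0.55 without Pax7KR replicate 1). On a scale corrected for transcript length the direction turned, with a log2 fold change of -0.14. The noncoding transcript Hk2-202 was assigned 7.09 reads in Pax7WT replicate 1 and was listed at 0 in the other 5 libraries. These few reads gave 0.96 of the 1.59 TPM of the gene in that library. Of the TPM of both hexokinases, Hk2 held 1.36 ± 0.82% in Pax7WT and 1.20 ± 0.30% in Pax7KR (SD, n = 3, exact two-sided permutation p = 0.90). With 3 libraries against 3, the smallest p of this test is 0.1. Without Pax7WT replicate 1, the share difference (Pax7KR minus Pax7WT) turned from -0.158 to 0.277 percentage points.

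Gpi1 (ENSMUSG00000036427, chr7:34201330-34230336, minus strand) converts glucose-6-phosphate to fructose-6-phosphate. Its CPM was 214, 232 and 201 in Pax7WT and 208, 223 and 234 in Pax7KR, which overlapped (log2 fold change 0.04, SE 0.07). The coding transcript Gpi1-201 held 50.3% of the mean TPM, and Gpi1-207, annotated as a target of nonsense-mediated decay, held 25.3%.

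Phosphofructokinase commits the sugar to glycolysis. Pfkl (ENSMUSG00000020277, chr10:77986947-78010083, minus strand) was the gene with the lowest p of the 10, at 17.1, 17.2 and 17.4 CPM in Pax7WT and 23.5, 21.1 and 18.9 CPM in Pax7KR. Every Pax7KR library was above every Pax7WT library, and the Pax7WT libraries lay within a narrow range (SD 0.18 CPM, against 2.31 CPM in Pax7KR). The log2 fold change was 0.30 (SE 0.11, 95% interval 0.06 to 0.53), a 1.23-fold difference, with an unadjusted p of 0.0169 and an adjusted p of 0.992 in edgeR, so that it did not pass the test over all genes.

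The full-length transcript Pfkl-201 carried 81.5% of the mean TPM, and lay at 7.79, 7.55 and 7.43 TPM in Pax7WT and 10.97, 9.72 and 8.20 TPM in Pax7KR. The remaining Pfkl transcripts summed to 0.288, 0.459 and 4.41 TPM in Pax7WT and to 2.17, 0.809 and 3.58 TPM in Pax7KR. On the whole-gene TPM scale the groups overlapped, since Pax7WT replicate 3 reached 11.8 TPM through these shorter transcripts, which held 24.7 of its 357 reads. With an offset for transcript length, the log2 fold change was 0.29 and the unadjusted p in edgeR was 0.120. Without Pax7KR replicate 1, the highest library, it was 0.21 with an unadjusted p of 0.101. The erythroid and endothelial marker lists also had higher estimates in Pax7KR, with 6 of 6 genes and a median log2 fold change of 0.64 for the first and 9 of 10 genes and 0.39 for the second. None of these markers had an unadjusted p under 0.05. Their part in the Pfkl values was not tested.

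Pfkm (ENSMUSG00000033065, chr15:98092589-98132451, plus strand) had 42.2, 47.3 and 46.5 CPM in Pax7WT and 45.7, 47.5 and 41.0 CPM in Pax7KR. These groups overlapped fully (log2 fold change -0.02, SE 0.08). The platelet-type gene Pfkp, which is not among the 10, had the highest level of the 3 phosphofructokinases, at 50.5 to 63.4 TPM, and held 60.0 ± 1.58% of their summed TPM in Pax7WT and 60.4 ± 0.94% in Pax7KR (SD, n = 3).

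Pfkm held 29.0%, 32.2% and 28.0% of the phosphofructokinase TPM in Pax7WT and 27.7%, 28.3% and 27.2% in Pax7KR. The means differed by -2.01 percentage points (exact two-sided permutation p = 0.20), and the groups overlapped. Pfkl held 10.2 ± 1.57% in Pax7WT and 11.9 ± 1.46% in Pax7KR (SD, n = 3, exact two-sided permutation p = 0.20). In shares of reads rather than TPM, the groups were apart for both genes, with differences of -2.23 points for Pfkm and 1.44 points for Pfkl (exact two-sided permutation p = 0.1 for each, the smallest possible). The TPM difference of Pfkm was -4.36 points with Pfkp left out, and -0.783 points without Pax7WT replicate 2.

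**Figure D3:**
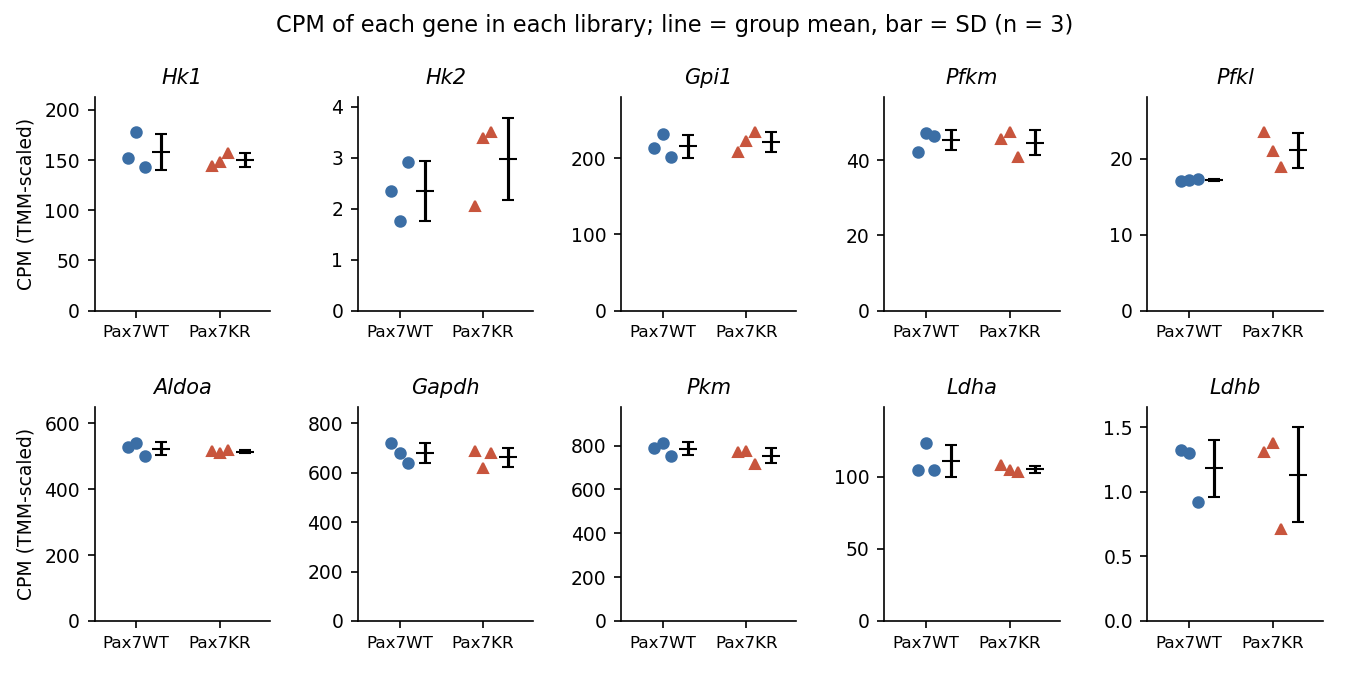
CPM of each of the 10 genes in each library (y axes start at 0), with circles for Pax7WT, triangles for Pax7KR, and a line and bar for the mean and SD of 3 libraries. The groups are apart for Pfkl, at 17.1 to 17.4 against 18.9 to 23.5 CPM, and overlap for the other 9 genes.

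Aldoa (ENSMUSG00000030695, chr7:126795234-126800751, minus strand) had 529, 542 and 501 CPM in Pax7WT and 516, 510 and 518 CPM in Pax7KR. The 3 Pax7KR libraries lay within the range of the Pax7WT libraries (log2 fold change -0.03, SE 0.06, 95% interval -0.16 to 0.11). Its interval was the narrowest of the 10. A further annotated gene of the same symbol, directly upstream (chr7:126800790-126809108, minus strand), was quantified apart at 4.51 to 6.80 TPM and was not added.

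Gapdh (ENSMUSG00000057666, chr6:125161715-125166467, minus strand) had 721, 680 and 641 CPM in Pax7WT and 688, 619 and 680 CPM in Pax7KR. The groups overlapped (log2 fold change -0.04, SE 0.07, 95% interval -0.19 to 0.11). Gapdh is widely used as a reference for qPCR, and its reads are shared with copies elsewhere in the genome. Of the reads assigned to Gapdh and its 105 annotated near-identical copies, 26.9% went to the copies, mostly to the processed pseudogene Gm12671 (chr4:91851668-91852669, minus strand, GRCm38). All 1002 bases of Gm12671 matched bases 241 to 1242 of the transcript Gapdh-203, its coding part, with 0 mismatches. The first 60 bases of that stretch, from GENCODE M21 transcript sequences, are shown because a read that lies within such a stretch fits both genes equally, and no letter is in capitals since none differs.
Gapdh-203, bases 241 to 300: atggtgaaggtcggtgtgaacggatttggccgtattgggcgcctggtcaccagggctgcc
Gm12671-201, bases 1 to 60: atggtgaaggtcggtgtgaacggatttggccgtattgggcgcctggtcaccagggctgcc

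Gm12671 was listed at 439, 485 and 383 TPM in Pax7WT and at 452, 476 and 442 TPM in Pax7KR. That was 28.0% to 33.3% of the TPM of the pair. Reads of this coding stretch cannot be told apart between the pseudogene and Gapdh. With all copies added, Gapdh reached 967, 960 and 856 CPM in Pax7WT and 927, 881 and 930 CPM in Pax7KR, with a log2 fold change of -0.02.

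Pkm (ENSMUSG00000032294, chr9:59656368-59679375, plus strand) had 790, 813 and 753 CPM in Pax7WT and 772, 774 and 717 CPM in Pax7KR. The lowest library was Pax7KR replicate 3, and the groups overlapped (log2 fold change -0.06, SE 0.07, 95% interval -0.20 to 0.08). Pkm carries a pair of mutually exclusive exons. The M1 exon is typical of differentiated muscle and gives a constitutively active enzyme, and the M2 exon is typical of proliferating and embryonic cells and gives an enzyme under allosteric control. The M1 exon lies at chr9:59675029-59675195 and the M2 exon at chr9:59675568-59675734 (plus strand, GRCm38), each being exon 9 of 11 in its own coding transcript. Both are 167 bases long and differ at 64 positions, in capitals below. Reads over these positions can be assigned to one form or the other. What other parts of the transcripts add to the estimated split was not examined.
M1 exon: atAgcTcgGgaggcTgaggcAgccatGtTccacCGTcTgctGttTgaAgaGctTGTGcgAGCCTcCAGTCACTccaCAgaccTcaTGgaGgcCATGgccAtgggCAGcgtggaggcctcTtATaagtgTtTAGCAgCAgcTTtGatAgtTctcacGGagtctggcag
M2 exon: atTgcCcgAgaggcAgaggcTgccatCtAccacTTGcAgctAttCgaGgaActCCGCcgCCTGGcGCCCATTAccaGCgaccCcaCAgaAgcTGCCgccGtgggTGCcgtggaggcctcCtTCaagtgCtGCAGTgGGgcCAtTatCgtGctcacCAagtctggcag

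Transcripts with the M2 exon prevailed in every library. The M2 form stood at 482, 462 and 460 TPM in Pax7WT and at 487, 488 and 432 TPM in Pax7KR. The M1 form stood at 85.2, 116 and 85.3 TPM in Pax7WT and at 98.8, 85.9 and 91.3 TPM in Pax7KR. The M2 share of both forms was 85.0%, 79.9% and 84.4% in Pax7WT and 83.1%, 85.0% and 82.6% in Pax7KR. The lowest share belonged to Pax7WT replicate 2, the library with low Fos, and the means of 83.1 ± 2.76% and 83.6 ± 1.29% did not differ beyond the spread (SD, n = 3, exact two-sided permutation p = 0.80). The gene Gm49759, annotated on the same strand across these exons (chr9:59672814-59676700), was quantified apart at 23.3 to 30.1 TPM. Together with pseudogenes it took 7.46% of the reads of the Pkm family, and the log2 fold change with these reads added was -0.04.

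**Figure D4:**
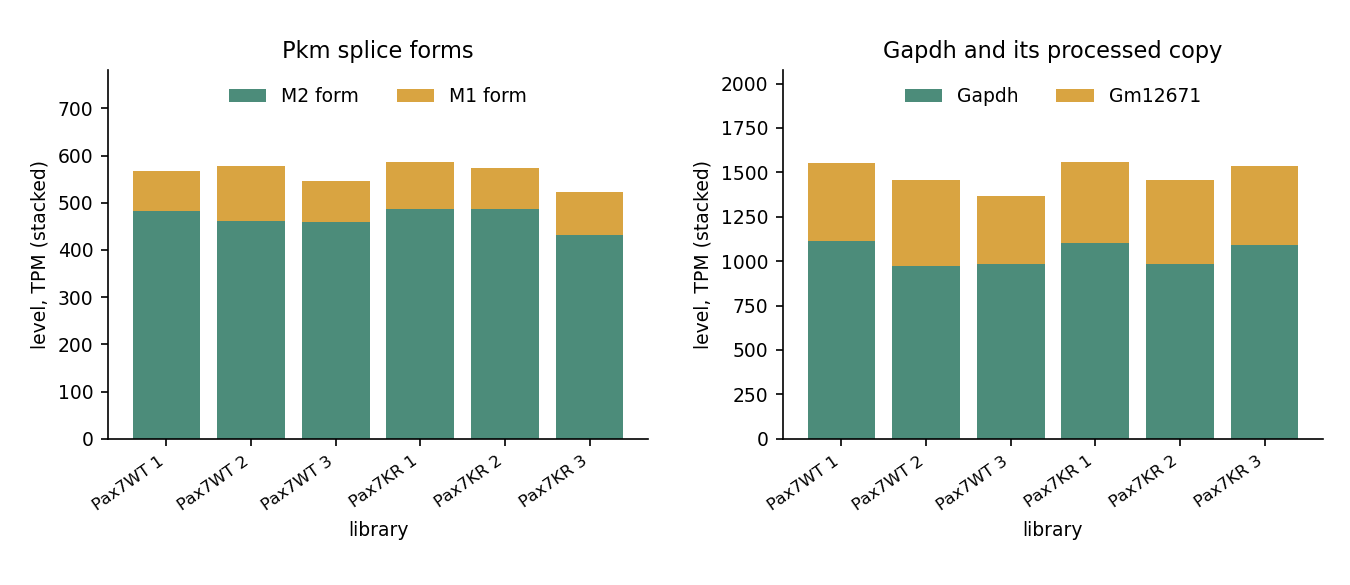
Stacked levels in TPM for each library (x axis), with the M2 and M1 forms of Pkm on the left and Gapdh with its processed copy Gm12671 on the right. M2 makes up 79.9% to 85.0% of both Pkm forms, and Gm12671 28.0% to 33.3% of the Gapdh pair.

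Lactate dehydrogenase is a tetramer of A and B subunits. Ldha (ENSMUSG00000063229, chr7:46841475-46855627, plus strand) had 104, 124 and 105 CPM in Pax7WT and 108, 104 and 103 CPM in Pax7KR. Pax7WT replicate 2 was the highest and the other 5 libraries lay within 5 CPM of each other (log2 fold change -0.07, SE 0.07, 95% interval -0.23 to 0.08). Ldhb (ENSMUSG00000030246, chr6:142490249-142507957, minus strand) was counted with 36, 23 and 19 reads in Pax7WT and 30, 33 and 15 reads in Pax7KR. In CPM the ranges were 0.93 to 1.32 and 0.71 to 1.38, with replicate 3 the lowest in each genotype. Its log2 fold change of -0.06 had an interval of -0.95 to 0.83, so that fold changes from 0.519 to 1.78 lay within what these reads allow. Ldhb made up 2.30 ± 0.41% of the lactate dehydrogenase TPM in Pax7WT and 2.58 ± 0.35% in Pax7KR (SD, n = 3, exact two-sided permutation p = 0.50), a share that leaves Ldhb-201 out.

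Across the 10 genes, Pax7WT replicate 2 held the highest CPM for 4 (Hk1, Aldoa, Pkm and Ldha) and Pax7KR replicate 3 the lowest for 4 (Pfkm, Pkm, Ldha and Ldhb). How often these libraries were the extreme over all genes was not counted, so this need not be particular to the enzymes. Pax7WT replicate 2 had the fewest reads, 17822367. Pax7WT replicate 2 was also the library with the lowest summed dissociation response genes, at 19948 TPM against 26728 to 33045 TPM in the others. The part of this difference in the enzyme values was not tested.

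Of 20 other genes for glycolytic enzymes, 14 passed the filter, and none had an adjusted p under 0.1 or an unadjusted p under 0.05. Their median log2 fold change was -0.02, with 6 higher and 8 lower. The highest levels were those of Eno1 (enolase) at 147 to 189 TPM, Pgk1 (phosphoglycerate kinase) at 70.9 to 110 TPM, Pgam1 (phosphoglycerate mutase) at 49.8 to 63.0 TPM and Pfkp. Eno3, the muscle enolase, stood at 21.1 to 30.4 TPM, the ADP-dependent glucokinase Adpgk at 21.1 to 24.9 TPM, and Bpgm, which makes 2,3-bisphosphoglycerate, at 16.2 to 22.1 TPM. Hk3, Hkdc1, Pgam2, Eno2 and Ldhd did not exceed 3.31 TPM. The triosephosphate isomerase gene Tpi1 was at 2.24 to 19.1 TPM, but its coding transcript Tpi1-205 was listed at 0 in all 6 libraries and another, Tpi1-203, varied from 0 to 15.0 TPM. Tpi1 is counted among the 14 genes, as one of the 6 with a higher estimate, and its level and direction are uncertain. Reads of Pgk1 are shared with copies that took 6.25% of its family's reads.

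Beyond the pathway itself, 8 lists (these other enzymes included) covered glucose and lactate transport, the regulators of phosphofructokinase, pyruvate dehydrogenase, side branches, acetyl-CoA production, fatty acid oxidation and transcription factors linked to glycolytic genes. Of their 106 genes, 97 were tested, 44 with a higher and 53 with a lower estimate in Pax7KR, and none passed an adjusted p of 0.1 in edgeR. An unadjusted p under 0.05 was reached by 6 of the 97 (6.19%, against 4.68% of all genes), all 6 lower in Pax7KR, where 2.43% of all genes were lower at this level. Groups did not overlap for 9 of the 97 (9.28%, against 10.3% of all genes). Lower estimates were also found for 8 of 8 smooth muscle and pericyte markers (median log2 fold change -0.13) and 11 of 15 myofibre markers (-0.12), and higher estimates for 6 of 8 activation genes (0.23). Of these markers, Ccnd1 of the activation list alone had an unadjusted p under 0.05, and it was lower in Pax7KR (log2 fold change -0.28). Their part in the values of these lists was not tested.

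The 6 genes were spread over 5 lists. Pfkfb3, whose kinase activity raises the phosphofructokinase activator fructose-2,6-bisphosphate, had 39.9, 51.8 and 57.5 CPM in Pax7WT and 39.4, 38.7 and 41.8 CPM in Pax7KR. Pax7WT replicate 1 lay among the Pax7KR libraries (log2 fold change -0.31, SE 0.12, edgeR adjusted p = 0.992). Pdhx, a structural subunit of the pyruvate dehydrogenase complex, had 15.1, 16.5 and 15.5 CPM in Pax7WT and 14.0, 10.9 and 12.5 CPM in Pax7KR, with no overlap (log2 fold change -0.33, SE 0.12, edgeR adjusted p = 0.992). Gys1, the muscle glycogen synthase, had 19.6, 19.3 and 19.2 CPM in Pax7WT and 16.7, 14.7 and 17.1 CPM in Pax7KR, also apart (log2 fold change -0.26, SE 0.11, edgeR adjusted p = 0.992). The other 3 were the fatty acid oxidation genes Cpt2 (log2 fold change -0.30) and Acadl (-0.21) and the transcription factor Myc (-0.20). The value of Cpt2 was -0.18 without Pax7WT replicate 1 and -0.56 with a length offset, and that of Acadl was -0.09 without Pax7WT replicate 3. Pfkfb3 had -0.19 without Pax7WT replicate 3, and Pdhx -0.52 with a length offset.

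The most abundant genes of these lists had overlapping groups in CPM, and their levels are given in TPM over all 6 libraries. Among transporters these were Bsg, the chaperone of the lactate carriers, at 220 to 254 TPM and the lactate carrier Slc16a1 at 19.1 to 28.0 TPM. Pfkfb2 (19.5 to 24.8 TPM) and Pfkfb3 (17.8 to 24.6 TPM) led the phosphofructokinase regulators. The pyruvate dehydrogenase subunits Pdha1 and Pdhb stood at 83.3 to 98.2 and 82.3 to 98.7 TPM, so that both subunits of its first enzyme were at a like level. In TPM, unlike CPM, the groups of Pdhb were apart, at 82.3 to 91.4 in Pax7WT and 94.8 to 98.7 in Pax7KR. Taldo1 of the pentose phosphate pathway and the glycogen phosphorylase Pygm reached 66.3 to 79.0 and 52.3 to 68.4 TPM. Acly, which makes cytosolic acetyl-CoA from citrate, was at 54.0 to 69.5 TPM, and the citrate carrier Slc25a1 at 25.2 to 36.6 TPM. The β-oxidation enzymes Acadm and Hadha were at 116 to 155 and 79.5 to 107 TPM. Hadha was also apart in TPM alone, at 79.5 to 92.4 in Pax7WT and 101 to 107 in Pax7KR. Less abundant genes of these lists were apart in TPM as well. The share of all genes that were apart in TPM was not computed, so Pdhb and Hadha cannot be set against it. The transcription factors Myc and Mlxipl were at 87.7 to 107 and 79.0 to 111 TPM.

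**Figure D5:**
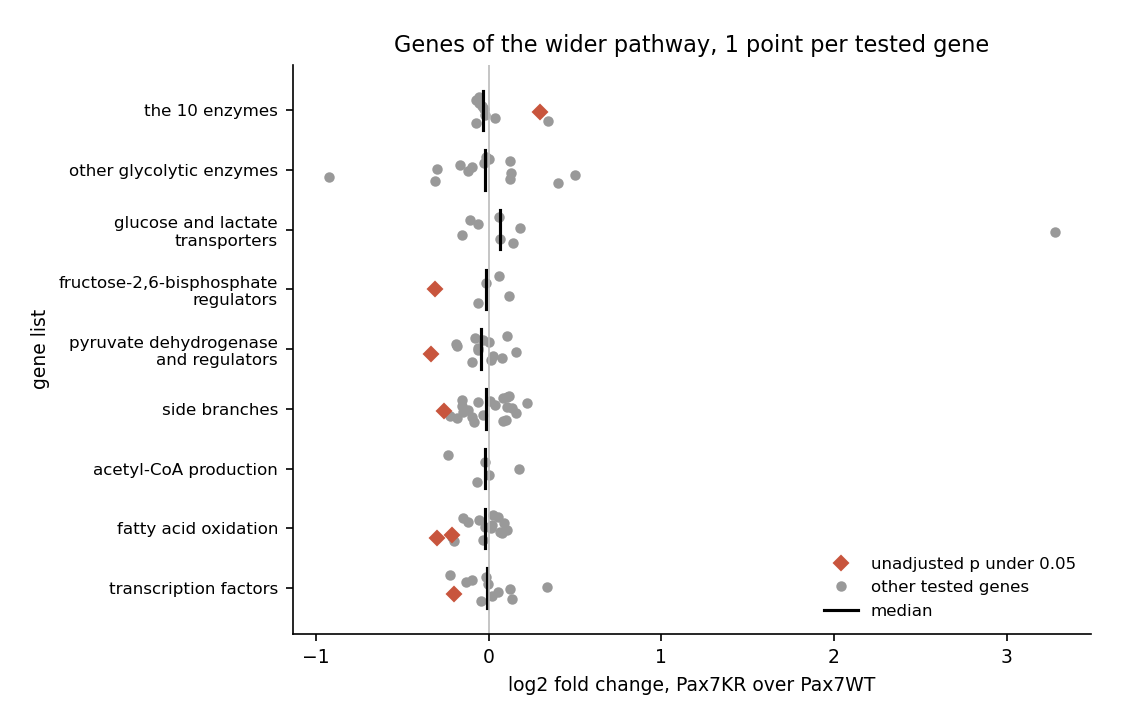
Log2 fold change of Pax7KR over Pax7WT (x axis) for each tested gene of the 10 enzymes and of 8 lists of the wider pathway, with the median of each list as a line and genes with an unadjusted p under 0.05 as diamonds. Medians lie between -0.05 and 0.06, and the transporter far to the right is Slc2a6, which had at most 7 reads in any library.

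The promoters of the 10 genes were searched for short motifs in RefSeq sequence (GRCm38.p6, from 250 bases before to 50 after each start), where all 10 genes were found with 18 promoters. The hypoxia response core, ACGTG or GCGTG on either strand, occurred in 13 of the 18 (72.2%), against 43.8% of all 32851 promoters. It occurred in at least 1 promoter of 9 of the 10 genes (all except Gpi1), against 46.7% of 27025 genes. A gene with several promoters counts more than once among the 18 and has more chances of a match. The E-box CACGTG, which overlaps that core, occurred in 2 (11.1%, Pfkm and Ldha) against 7.15% of all promoters. The median GC content was 58.2% for the 18 promoters and 52.7% for all. Of 31099 promoters taken as equally GC-rich, 45.6% had the core and 7.48% the E-box. Their median GC content was 53.7%, still below that of the 18, so this set is only loosely matched. Such a match is a description of the letters, not a binding site.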

How the data were processed

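RNA-seq of sorted satellite cells (3 Pax7WT and 3 Pax7KR samples, 15 ng of RNA each, stranded NEBNext Ultra II Directional libraries, NextSeq 500) was analysed. The authors quantified transcripts with Salmon 1.3.0 against GENCODE vM25 (GRCm38) with decoys and deposited an estimated count, a TPM value and an effective length per transcript. They used tximport and DESeq2 1.28.1. Here, estimated counts were summed per gene over the 139791 of 140992 transcripts matched to GENCODE M21 (the rest held 0.606% of reads) and rounded. Genes with at least 5 reads in at least 2 libraries were tested in edgeR 4.0.16 (TMM, robust quasi-likelihood test, design by genotype), with Benjamini-Hochberg adjustment and a cut-off of 0.1. CPM values are TMM-scaled, and 95% intervals use the fitted SE. Shares were compared by exact permutation tests in scipy 1.17.1. DESeq2 1.42.0 was an alternative. Level comparisons between genes use TPM. Libraries had 17822367 to 27908054 reads, and the fit gave a common biological coefficient of variation of 13.8%. The labels number the replicates and the paper's methods speak of biological samples, but whether a sample pooled animals is not given in the sources used here.

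The 10 genes and all lists were chosen with earlier results of these data known. Genes named are the 10 enzymes, other glycolytic enzymes passing the filter, Pax7, and from each pathway list the 2 most abundant tested genes and those with unadjusted p under 0.05. A gene covered by this rule is not reported here. Marker genes, Ccnd1, Fos, Ddx3y, Slc2a6, Gapdh copies and Gm49759 were named after their values were seen. Near-identical copies are annotated pseudogenes, or overlapping genes on the same strand, that share at least 150 31-mers with a gene. Counts were simulated for Pax7KR against Pax7WT with 200 changed genes. In these, edgeR recovered 10% of 0.3 log2 changes among 16592 genes and 96.5% of log2 changes of 1 among 16627 genes. The changed genes were drawn above a minimum mean CPM that Hk2 and Ldhb did not reach, so these rates do not cover them. The simulated spread followed the trend over genes of like level, not the spread of each gene. Replicate numbers were not used to pair samples in the main test, and whether same-numbered samples were paired is not given in the sources used here.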

Additional observations from a re-analysis of the deposited data

How the results depend on the processing

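No setting tried brought any of the 10 enzyme genes past an adjusted p of 0.1. In 160 refits of single genes, 142 kept the direction and 18 turned it, the smallest adjusted p being 0.564. The number of genes called overall was 0 in the main edgeR test, 30 with DESeq2, 45 with DESeq2 and a length offset, 157 with no filter on low counts, and 1 to 32 when 1 library was left out (32 without Pax7KR replicate 3). With the replicate block it was 13. Deviations of same-numbered samples from their group means had correlations of 0.0018, 0.045 and -0.056. These values do not settle whether such samples were paired, for example by litter, which the labels do not state. The block called none of the 10 enzymes. The count of enzymes with an unadjusted p under 0.05 was 1, and 0 with a length offset in edgeR or DESeq2. Leaving out 1 library gave 0 to 1, the 0 being without Pax7KR replicate 1. In the wider lists, the no-filter fit called 1 gene (Pfkfb3, adjusted p = 0.0683), and 10 genes had an unadjusted p under 0.05. Leaving out 1 library gave 0 to 11 such genes (3 without Pax7KR replicate 1, 0 without replicate 2 and 11 without replicate 3). Directions turned for Hk2 with a length offset (-0.14 in edgeR, -0.14 in DESeq2) and for Ldhb (0.076 and 0.079), and with library sizes alone for Pfkm (0.012) and Aldoa (0.0043). Leaving out 1 library gave log2 fold changes of -0.14 to 0.023 for Hk1, -0.0076 to 0.095 for Gpi1, -0.069 to 0.041 for Pfkm, -0.081 to 0.0077 for Gapdh, -0.12 to 0.0093 for Ldha, -0.22 to 0.19 for Ldhb and 0.18 to 0.55 for Hk2. The Hk2 share difference (Pax7KR minus Pax7WT) was 0.438 percentage points in shares of reads, and -0.535 to 0.277 with 1 library left out. That range was -2.86 to -0.783 for the Pfkm share, 1.16 to 2.57 for the Pfkl share, -0.413 to 1.16 for the Pfkp share and -1.10 to 1.43 for the Pkm M2 share. The cause of these turns was not tested. The merging of near-identical copies was chosen after seeing the data and called 0 genes. Hk2 and Ldhb had under 100 reads per library.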
